A study of Mus musculus with 8 samples.

Results

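The comparison is between day 2 embryoid bodies whose titles give Skp1a KO and those whose titles give Skp1a fl/fl, in mouse cells. It rests on 4 of the 8 RNA libraries of the series, 2 in each group, chosen by sample title alone. The fl/fl group carries floxed, undeleted Skp1a, and the KO group is titled as a knockout of the same gene. Both groups were grown in standard embryonic stem (ES) cell and embryoid body medium and were titled as embryoid bodies at day 2. The other 4 libraries are ES cells of the same genotypes, and they served here only to estimate the spread between libraries. The fl/fl libraries are numbered lots 1 and 12 and the KO libraries lots 1 and 2, and paired values below are given in that order. The sources used here do not say what a lot is (a culture, a clone or a preparation), nor how and when Skp1a was deleted. The p-values therefore weigh differences against the spread among these libraries alone, and that spread may be technical. The tissue field of the labels goes against the titles, giving ES cells for the KO libraries and embryoid bodies for the fl/fl ones. The titles were followed, and KO below means the libraries so labelled.

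SKP1 is the adaptor of SCF ubiquitin ligases, in which it links the CUL1 scaffold to one of many F-box proteins, and the F-box protein picks the substrate to be marked for degradation. The series title concerns degradation of Polycomb repressive complex 2 (PRC2) through SKP1A and activation of genes that Polycomb silences. PRC2 methylates histone H3 at lysine 27 over developmental genes, and PRC1 is recruited to much of the same chromatin. Embryoid bodies are aggregates in which ES cells leave the naive state, pass through a formative, epiblast-like state, and then begin to form the germ layers, with Wnt and Nodal signals driving genes of the primitive streak.

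Total counts were 7858452 and 9133497 for the fl/fl libraries, against 9260644 and 10055667 for the KO libraries. Mitochondrially encoded transcripts took 2.28% to 2.70% of counts in fl/fl and 3.15% to 3.24% in KO, and at least 1 count was seen for 18936 and 19323 genes in fl/fl against 20481 and 20867 in KO. Libraries of the same group differed by more than counting noise, so none was counted as a repeat of another. Levels are CPM (a gene's counts scaled to the same total in each library) after TMM scaling, which aligns libraries on most genes, and changes are log2 values, KO minus fl/fl, ± standard error with 2 libraries a group. A gene is called when its edgeR adjusted p is under 0.05, and rose and fell below refer to called genes only.

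Of 16542 genes tested, 5072 (30.7%) were called higher in KO and 5217 (31.5%) lower. At least 2-fold changes were unequal in number, with 2463 genes (14.9%) higher and 1021 (6.17%) lower. The direction differed with the level in fl/fl. Of 2703 genes under 1 CPM in fl/fl, 40.8% were at least 2-fold higher and 2.4% at least 2-fold lower, with a median change of 1.27. Of 2476 genes over 100 CPM, 1.05% were at least 2-fold higher and 6.87% lower, with a median of -0.34. A weakly expressed gene passes the filter on low counts only where one group is high enough, and the classes were formed from the fl/fl values that also enter the change, so the first class is partly set by its own selection. This touches each list of mostly silent genes below. In 79.7% of all tested genes both libraries of one group lay above both of the other. Scaling by library size alone, which puts the median of all genes at 0.23 and not at 0.00, called 7075 genes higher and 3345 lower.

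**Figure D1:**
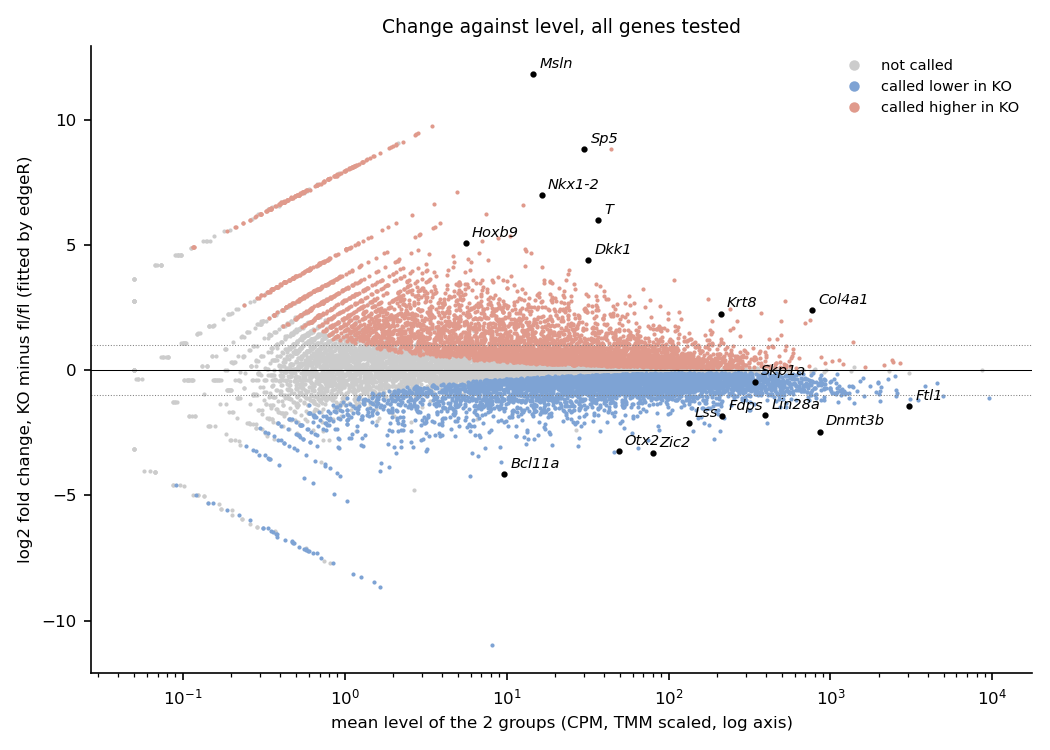
Each point is one of the 16542 tested genes, with the mean level of both groups on the x axis (CPM, log axis) and the fitted log2 change, KO minus fl/fl, on the y axis, coloured by call. Beyond the dotted lines at 2-fold lie 2463 called genes above and 1021 below, and the rises of Sp5 and T reach farther from 0 than the falls of Bcl11a and Zic2, though the fitted values of Msln and Sp5 rest on 0 and 2 counts in fl/fl.

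Skp1a itself, the targeted gene, stood at 401 and 389 CPM in fl/fl and 286 and 289.6 CPM in KO, a change of -0.46 ± 0.04 (edgeR adjusted p = 5.13e-07). Both KO libraries lay below both fl/fl libraries, and most of the transcript level remained. Since reads were counted over the whole gene, this value is not a test of a deletion of exons. Most other parts of the ligase were lower too. Of 14 genes for the SCF core and for CUL1 neddylation and exchange, 0 rose and 12 fell, none by 2-fold. Their median was -0.43, against 0.00 for all tested genes and -0.34 for all tested genes over 100 CPM in fl/fl. Rbx1, the RING subunit that brings in the ubiquitin-charged enzyme, moved most, from 78.1 and 77.4 CPM to 41.6 and 45.1 CPM (-0.84 ± 0.07, adjusted p = 6.24e-07). Cul1, the scaffold, stood at 187 and 186 CPM in fl/fl and 143 and 137 CPM in KO (-0.41 ± 0.04). Cand1, which exchanges substrate adaptors on CUL1 (-0.51 ± 0.04), and Uba3 and Nae1, the subunits of the NEDD8-activating enzyme (-0.54 ± 0.06 and -0.54 ± 0.06), fell as well. With library size alone the median of this list was -0.21, with 1 gene higher and 9 lower.

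F-box genes had no common direction. Of 64 tested of 81 in the table, 14 rose and 24 fell, with a median of -0.13 that became 0.09, with 22 higher and 14 lower, under library size alone. Skp2, whose protein targets the CDK inhibitor p27 for degradation, went from 69.8 and 72.1 CPM to 134 and 134 CPM (0.92 ± 0.05, adjusted p = 6.35e-08). Fbxw7, the receptor for cyclin E and MYC, rose by 0.58 ± 0.06 and Fbxw9 by 1.22 ± 0.08. The clearest falls were in Fbxo27 (-1.52 ± 0.21), which binds glycoproteins, and in the atrophy-linked Fbxo32 (-1.27 ± 0.18). Btrc, the receptor for phosphorylated beta-catenin, stood at 49.9 and 46.7 CPM in fl/fl and 40.1 and 37.8 CPM in KO (-0.31 ± 0.06, adjusted p = 0.00143), a call that was lost under library size alone (adjusted p = 0.317).

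Transcripts of PRC2 changed by less than 2-fold in every one of 12 subunits tested, 6 higher and 3 lower (median 0.17). Library size alone gave 9 higher and 1 lower (median 0.399). The catalytic subunit Ezh2 stood at 178 and 190.3 CPM in fl/fl and 214 and 218 CPM in KO (0.23 ± 0.04, adjusted p = 0.00071), and Eed, which reads the H3K27 mark, at 110.1 and 105 CPM in fl/fl and 127 and 137 CPM in KO (0.29 ± 0.06). Ezh1, the alternative catalytic subunit, fell from 53.3 and 54.9 CPM to 31.1 and 28.4 CPM (-0.87 ± 0.07). The core subunit Suz12 was at 334 and 323 CPM in fl/fl and 311 and 310.1 CPM in KO (-0.08 ± 0.03, adjusted p = 0.0672, not called, and 0.15 under library size alone). The accessory subunit Jarid2 was at -0.15 ± 0.04 (adjusted p = 0.00479) and at 0.08 under library size alone, and Epop, another accessory subunit, rose by 0.68 ± 0.05. Phf1 stood at 0.49 ± 0.16 (adjusted p = 0.0216), a call lost in 4 of the 11 alternatives, among them those without the KO library of lot 1 (0.173), the fl/fl library of lot 1 (0.108) or that of lot 12 (0.0561). Transcript levels do not measure the PRC2 proteins.

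Among 27 PRC1 genes, 8 rose and 13 fell, with a median of -0.08 that became 0.15 under library size alone, with 14 higher and 9 lower. Phc1, a polyhomeotic subunit, went from 759 and 757 CPM to 306 and 306 CPM (-1.31 ± 0.03, adjusted p = 1.59e-10). Cbx7, which reads H3K27 methylation in ES cells, fell (-0.78 ± 0.06). Pcgf2, a ring finger partner in canonical PRC1 (-0.76 ± 0.06), and Kdm2b, which carries a variant PRC1 to CpG islands (-0.73 ± 0.05), fell. The catalytic subunit Rnf2 was not called (0.03 ± 0.05, adjusted p = 0.683), and it stood at -0.048 without the fl/fl library of lot 12. Its paralogue Ring1 stood at -0.39 ± 0.14 (adjusted p = 0.04), a call lost in 8 of the 11 alternatives, among them those without the KO library of lot 1 (0.197), the fl/fl library of lot 1 (0.134) or that of lot 12 (0.102).

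By the rule for the largest changes, the rises were led by genes nearly silent in fl/fl. Msln, which encodes the surface protein mesothelin, had 0 counts in fl/fl and 27.3 and 31.3 CPM in KO, at least 158-fold higher against a floor of 3 counts over the fl/fl group. Sp5, a Wnt-induced transcription factor gene, had 2 counts in fl/fl and 1287 in KO, 484 times as many after scaling (95% counting interval 134 to 3999). Sprr2a2, a cornified envelope gene with near-identical copies whose reads may be shared, was 471 times as high in KO (interval 161 to 2285). Below them came Nkx1-2, Cdx1, T, Cdx2 and Hoxb9, all described with their groups, and Apod, an apolipoprotein (0.54 and 0.346 CPM in fl/fl and 17.8 and 16.7 CPM in KO), and Vnn1, a pantetheinase (0.54 and 0.231 CPM in fl/fl and 14.99 and 12.5 CPM in KO). The largest falls were of genes with moderate levels in fl/fl, where the rule requires at least 10 CPM for a fall. The carbonic anhydrase gene Car14 went from 11.5 and 11.2 CPM to 0.49 and 0.715 CPM (-4.2 ± 0.27) and the transcription factor gene Myb from 79.1 and 88.7 CPM to 9.99 and 7.69 CPM (-3.25 ± 0.11). Passed over by the naming rule and chosen after its values were seen, the unnamed gene model Gm6087 had 129 counts in each fl/fl library and 0 in both KO libraries, at least 114-fold lower. The cannabinoid receptor Cnr1 (-3.43 ± 0.24) and the synaptic vesicle gene Sv2a (-3.05 ± 0.16) were also among them. In bulk RNA, fewer cells of a type and less RNA per cell cannot be told apart, here and for every group that follows.

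Formative and primed epiblast genes, which ES cells switch on as they leave the naive state, had the lowest median of the pluripotency lists. Of 22 genes 16 fell, 13 of them by at least 2-fold, and 4 rose (median -1.43). Otx2, a homeobox factor that drives the move to the epiblast state, stood at 81.5 and 96.0 CPM in fl/fl and 10.2 and 8.85 CPM in KO (-3.23 ± 0.11, adjusted p = 8.52e-10). Pou3f1 (OCT6), a POU factor of the same state, went from 124 and 136 CPM to 17.7 and 19.7 CPM (-2.8 ± 0.08). The zinc finger genes Zic2 (140.5 and 152 CPM in fl/fl and 17.1 and 12.3 CPM in KO, -3.32 ± 0.11) and Zic5 (-3.11 ± 0.08) were among the 10 largest falls. Fgf5, the usual marker of the formative epiblast, was at 57.1 and 54.2 CPM in fl/fl and 20.1 and 20.5 CPM in KO (-1.45 ± 0.12, adjusted p = 9.59e-07), so that this stage marker was lower in KO but present.

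Naive pluripotency genes mostly moved the other way. Of 18 genes 11 rose and 5 fell (median 0.89). Tbx3, a T-box factor of naive cells, was at 35.1 and 32.1 CPM in fl/fl and 166 and 166 CPM in KO (2.31 ± 0.05), and Klf4 at 13.8 and 11.5 CPM in fl/fl and 42.4 and 39.5 CPM in KO (1.7 ± 0.09, adjusted p = 3.25e-08). Gbx2 (2.45 ± 0.11) and Socs3 (1.84 ± 0.09), both induced by LIF and STAT3, and Zfp57, which protects methylation at imprinted loci (1.62 ± 0.05), rose too. Nanog stood at 225 and 215 CPM in fl/fl and 392 and 355 CPM in KO (0.76 ± 0.05). The list did not move as a whole, since Esrrb fell from 259 and 237 CPM to 158 and 152 CPM (-0.68 ± 0.05). Zfp42 (REX1), a marker of naive cells, was not called, with overlapping groups (162 and 150.003 CPM in fl/fl and 152 and 151 CPM in KO, adjusted p = 0.442) and a change of -0.04 that became 0.18 under library size alone.

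Genes shared by naive and primed cells fell in 11 of 14 members and rose in 2 (median -0.70). The falls of the central factors were moderate, with Pou5f1 (OCT4) at 839 and 828 CPM in fl/fl and 583 and 573 CPM in KO (-0.53 ± 0.04) and Sox2 at 414 and 408 CPM in fl/fl and 277 and 266 CPM in KO (-0.60 ± 0.04). Larger falls were seen in Lin28a, whose protein blocks maturation of let-7 microRNAs (621 and 610.3 CPM in fl/fl and 180.2 and 175 CPM in KO, -1.79 ± 0.03), in its relative Lin28b (-1.46 ± 0.06), in the zinc finger gene Sall1 (-1.88 ± 0.05) and in Utf1, a chromatin factor of undifferentiated cells (-1.58 ± 0.04).

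The de novo DNA methyltransferases, which methylate the genome as cells enter the epiblast state, were both lower. Both are also counted in the formative list above. Dnmt3b stood at 1405 and 1499 CPM in fl/fl and 258 and 272 CPM in KO (-2.45 ± 0.05, adjusted p = 2.65e-11) and Dnmt3a at 461 and 496 CPM in fl/fl and 161 and 161 CPM in KO (-1.57 ± 0.05). Tet1, a dioxygenase that oxidises methylcytosine, fell (-0.88 ± 0.05), and its relative Tet2 rose by 0.93 ± 0.07. Across the 14 genes of DNA methylation 4 rose and 8 fell, with a median of -0.22 that became 0.01 under library size alone.

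**Figure D2:**
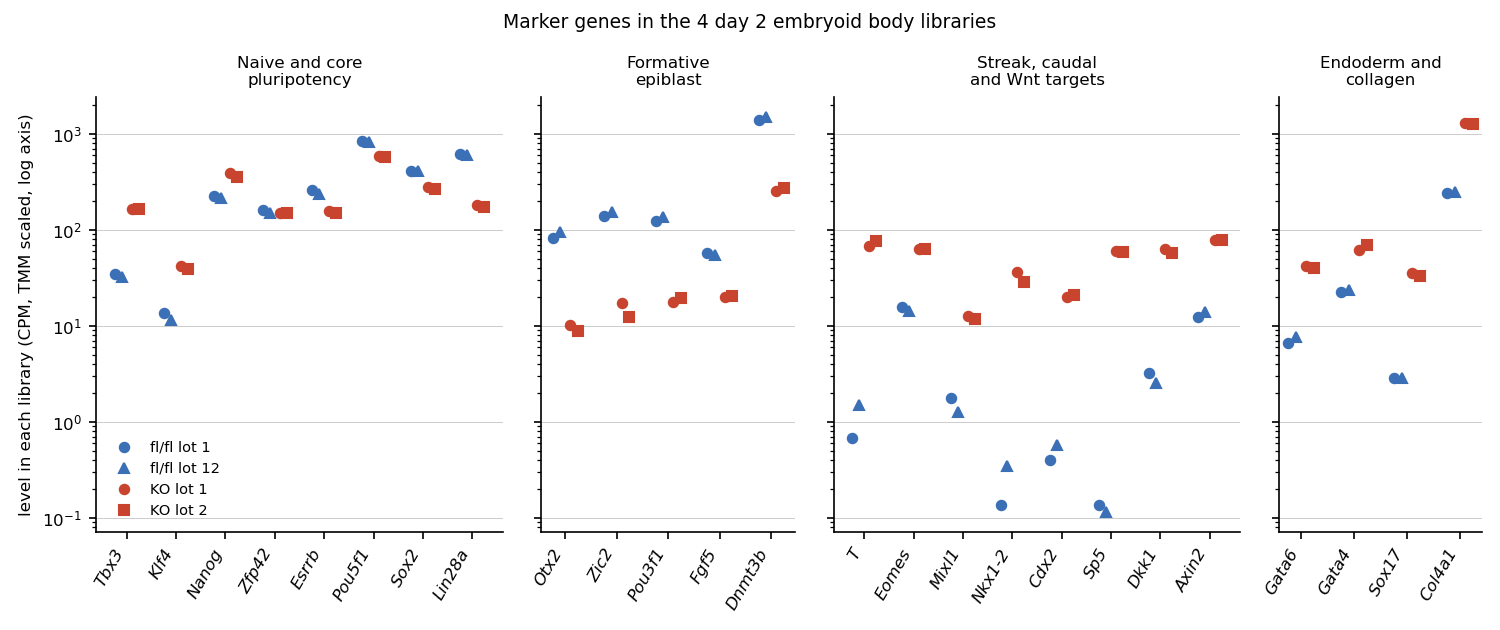
Levels of marker genes in each of the 4 libraries, in CPM on a log y axis, with the genes grouped by role along the x axis and 1 point per library. The fl/fl (blue) and KO (red) points separate, with Otx2, Pou3f1 and Dnmt3b lower in KO and T, Cdx2 and Sox17 higher, while Zfp42 overlaps.

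Most of the Wnt target genes listed rose in KO, and some fell. Canonical Wnt signals stabilise beta-catenin, which binds TCF and LEF factors at DNA with the core CTTTGA or CTTTGTT, and many of the genes so induced restrain the pathway in turn. The promoters of T, Sp5 and Dkk1 are shown, and a promoter was shown only where its window held a match. T is not in the Wnt feedback list. The windows come from RefSeq and build GRCm38.p6 and run from 250 bases before to 50 bases after the start site. Matches to CTTTGA or CTTTGTT on either strand are in capitals. T is at chr17:8434173-8434472 (+ strand), Sp5 at chr2:70474673-70474972 (+ strand) and Dkk1 at chr19:30549447-30549746 (- strand).
T: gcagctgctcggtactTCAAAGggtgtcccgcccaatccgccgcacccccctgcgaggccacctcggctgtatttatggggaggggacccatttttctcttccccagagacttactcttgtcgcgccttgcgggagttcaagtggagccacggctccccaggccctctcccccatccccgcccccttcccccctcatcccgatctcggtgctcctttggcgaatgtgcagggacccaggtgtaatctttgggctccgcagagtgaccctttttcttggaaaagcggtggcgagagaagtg
Sp5: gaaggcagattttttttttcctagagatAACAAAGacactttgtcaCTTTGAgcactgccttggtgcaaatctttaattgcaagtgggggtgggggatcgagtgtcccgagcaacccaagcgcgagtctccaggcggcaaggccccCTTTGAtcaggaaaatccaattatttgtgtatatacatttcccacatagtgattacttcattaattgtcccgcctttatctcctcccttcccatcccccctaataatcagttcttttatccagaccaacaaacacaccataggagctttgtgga
Dkk1: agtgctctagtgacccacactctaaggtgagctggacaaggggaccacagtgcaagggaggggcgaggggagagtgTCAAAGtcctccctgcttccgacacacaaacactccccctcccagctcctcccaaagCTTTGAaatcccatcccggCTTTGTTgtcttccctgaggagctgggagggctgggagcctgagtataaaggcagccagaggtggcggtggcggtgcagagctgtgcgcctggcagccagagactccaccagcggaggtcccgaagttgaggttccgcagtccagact
The Sp5 and Dkk1 windows each hold 3 matches and the T window holds 1. CTTTGA was found in 5 of the 14 Wnt feedback genes with a promoter in the table (35.7%), against 14.3% of 11878 tested genes and 18.2% of all 27025 promoters of the same length. CTTTGTT was found in 2 of the 14 (14.3%), against 4.96% of tested genes and 6.68% of all promoters. CTTTGA was in 16.4% of the promoters of genes at least 2-fold higher and in 14.2% of those at least 2-fold lower. The motifs share their first letters but the same bases of one strand cannot match both, and a match is a description of letters, not a binding site.

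Of 24 genes of Wnt feedback and TCF targets 17 rose, 12 by at least 2-fold, and 4 fell, 3 by at least 2-fold (median 1.25). The summed level of the list was 681 and 673 CPM in fl/fl and 893 and 866 CPM in KO. Axin2, a scaffold of the beta-catenin destruction complex and the standard readout of the pathway, was at 12.3 and 13.8 CPM in fl/fl and 78.6 and 77.8 CPM in KO (2.58 ± 0.09, adjusted p = 8.69e-10). Dkk1, a secreted inhibitor of the LRP co-receptors, went from 3.24 and 2.54 CPM to 63.98 and 57.8 CPM (4.41 ± 0.14), and the receptor gene Tnfrsf19 from 7.96 and 8.08 CPM to 67.02 and 59.8 CPM (2.98 ± 0.10). In each of these 3 genes the KO libraries lay far above both fl/fl libraries. Lef1, a nuclear partner of beta-catenin, moved less, at 10.7 and 14.4 CPM in fl/fl and 16.2 and 19.3 CPM in KO (0.49 ± 0.16, adjusted p = 0.0213). That call was lost without the KO library of lot 2 (0.160) and without the fl/fl library of lot 1 (0.172). Transcripts of Wnt ligands and receptors rose in 19 of 33 members and fell in 8 (median 1.08). At least 2-fold were 17 of the rises and 4 of the falls. The summed level of this list was nevertheless lower in KO, at 743 and 776 CPM in fl/fl and 614 and 607 CPM in KO. The ligands Wnt8a (5.8 and 7.04 CPM in fl/fl and 31.3 and 35.1 CPM in KO), Wnt7b (10.1 and 8.08 CPM in fl/fl and 44.6 and 42.2 CPM in KO) and Wnt11 (0.81 and 1.04 CPM in fl/fl and 8.33 and 8.76 CPM in KO) were among those that rose.

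Genes of the primitive streak, the site where mesoderm and endoderm arise, rose in 11 of 17 members and fell in 1, with a median of 2.01. Their summed level was 46.6 and 51.3 CPM in fl/fl and 369 and 362 CPM in KO. The sum and the counts include Axin2 and Sp5, which are also in the Wnt feedback list. Evx1 and Nkx1-2 are among the genes shared with the caudal list. T (brachyury), a T-box factor of the streak and nascent mesoderm, stood at 0.675 and 1.5 CPM in fl/fl and 68.2 and 75.9 CPM in KO (6.0 ± 0.19, adjusted p = 5.82e-10). Mixl1, a homeobox factor of mesendoderm, was at 1.75 and 1.27 CPM in fl/fl and 12.7 and 11.9 CPM in KO (3.03 ± 0.28), and Eomes, a T-box factor of the streak, at 15.9 and 14.2 CPM in fl/fl and 64.1 and 62.6 CPM in KO (2.08 ± 0.11). Evx1, a homeobox gene of the posterior streak, had 1 count in fl/fl and 152 in KO, 114 times as many after scaling (counting interval 20.2 to 4542).

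Genes of the caudal epiblast and tailbud, which hold the posterior progenitors of the body axis, rose in 11 of 17 members and fell in 2 (median 2.06). This list shares Cdx1, Cdx2 and Cdx4 with the Wnt feedback list, and Wnt8a and others with the Wnt ligand list. The caudal homeobox genes, which act upstream of posterior Hox genes, all rose. Cdx2 stood at 0.405 and 0.577 CPM in fl/fl and 20.2 and 21.02 CPM in KO (5.35 ± 0.26), Cdx1 at 0.27 and 0.231 CPM in fl/fl and 27.1 and 22.5 CPM in KO (6.59 ± 0.27) and Cdx4 at 0 and 0.462 CPM in fl/fl and 3.72 and 4.11 CPM in KO (3.94 ± 0.61). Nkx1-2, a marker of caudal progenitors, was at 0.135 and 0.346 CPM in fl/fl and 36.5 and 28.7 CPM in KO (6.99 ± 0.40). Each of these 4 genes had few counts in fl/fl, so the size of the fold is uncertain.

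The Nodal pathway was split. Nodal, the TGF-beta ligand of the streak, stood at 66.7 and 66.6 CPM in fl/fl and 169.5 and 157 CPM in KO (1.29 ± 0.05, adjusted p = 3.13e-09). Its feedback inhibitor Lefty1 went the other way, from 317 and 276 CPM to 96.8 and 97.3 CPM (-1.61 ± 0.06), as did the activin receptor Acvr2b (-1.58 ± 0.07), the SMAD partner Foxh1 (-1.39 ± 0.08) and the SMAD repressor Skil (-1.39 ± 0.05). Of 17 genes 5 rose and 8 fell, with a median of -0.21. Under library size alone 7 rose and 6 fell (median 0.01), and 3 rose without the KO library of lot 1 or without the fl/fl library of lot 1. FGF and ERK feedback genes fell in 11 of 19 members and rose in 4 (median -0.45), against 9 and 6 under library size alone (median -0.22). The ERK inhibitors Spry1 (52.4 and 53.1 CPM in fl/fl and 16.7 and 15.7 CPM in KO, -1.7 ± 0.08) and Dusp4 (86.4 and 84.5 CPM in fl/fl and 33.4 and 33.8 CPM in KO, -1.34 ± 0.06) were among the falls. Genes of BMP signalling rose in 7 of 20 members and fell in 5 (median 0.42), shares near those of all tested genes. Library size alone gave 13 higher and 3 lower (median 0.651), and 3 fell without the fl/fl library of lot 12. Bmp4, a ligand, was at 3.37 and 2.54 CPM in fl/fl and 15.7 and 15.8 CPM in KO (2.43 ± 0.15), its secreted antagonist Grem1 at 6.34 and 6.92 CPM in fl/fl and 67.7 and 68.95 CPM in KO (3.36 ± 0.09) and the target Id2 at 13.2 and 13.04 CPM in fl/fl and 58.5 and 54.6 CPM in KO (2.1 ± 0.08).

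Hox genes, the homeobox clusters that pattern the body axis and are a textbook Polycomb target, were low in both groups and higher in KO. Of 39 listed 29 passed the filter on low counts, and of these 27 rose and 0 fell (median 2.97, or 2.95 with the members at 0 counts set at their bound). Their levels summed to 10.1 and 11.7 CPM in fl/fl and 88.3 and 92.9 CPM in KO. All 4 clusters took part. Called higher were 8 of 8 tested genes of the Hoxa cluster (median 3.69), 8 of 9 of Hoxb (2.82), 6 of 6 of Hoxc (2.91) and 5 of 6 of Hoxd (2.95). By position along the clusters the medians were 2.82 for paralogues 1 to 4, 2.92 for 5 to 8 and 3.49 for 9 to 13. These differences between clusters and positions were not tested. The posterior gene Hoxb9 was at 0.135 and 0.462 CPM in fl/fl and 11.3 and 10.5 CPM in KO (5.09 ± 0.30) and the most posterior Hoxd13 at 0.54 and 2.08 CPM in fl/fl and 8.03 and 8.5 CPM in KO (2.6 ± 0.36). Hoxb13 and Hoxd1 were tested and not called, at 0.17 and -0.23. Under DESeq2, 20 of the 29 tested Hox genes were called higher and 0 lower.

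**Figure D3:**
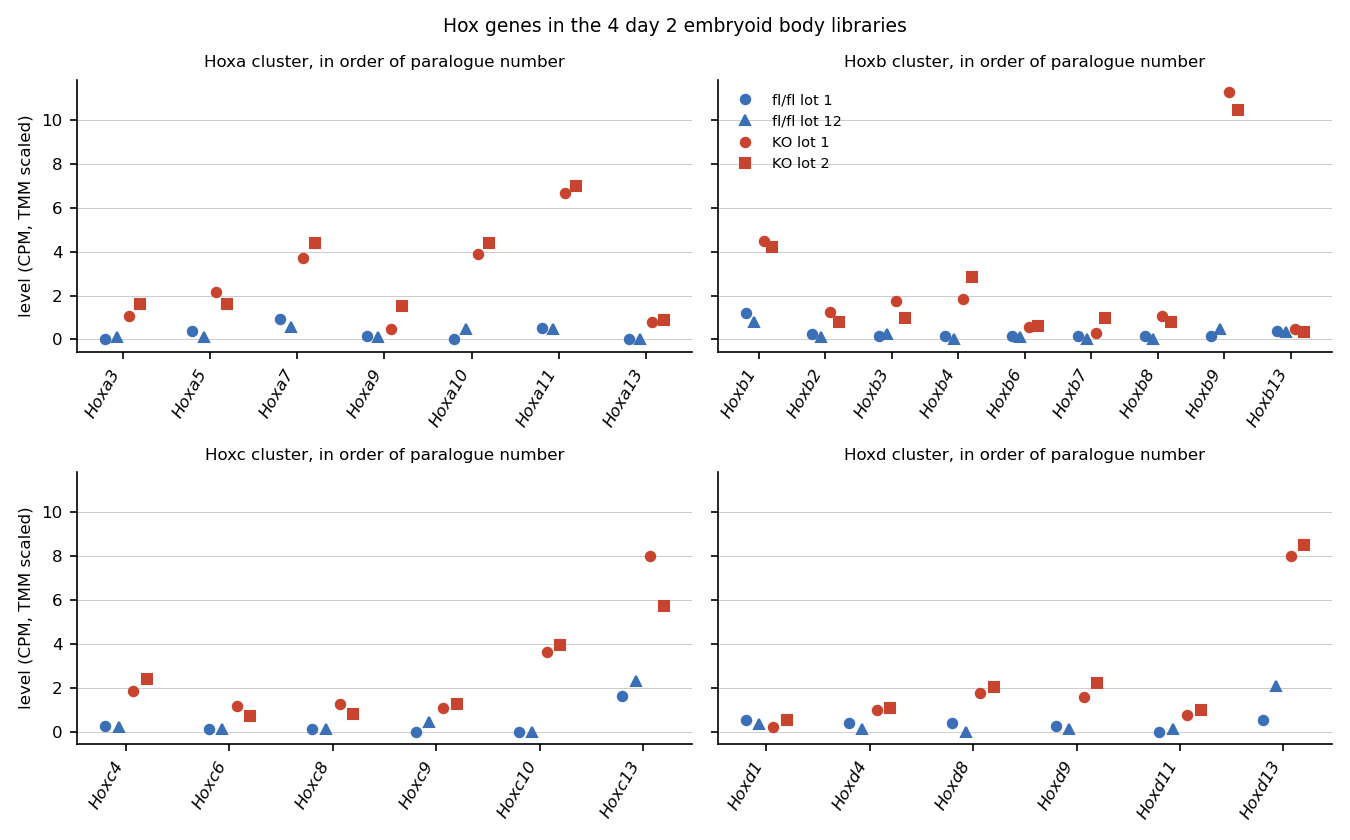
Each of 28 tested Hox genes is placed by cluster and paralogue number along the x axis, and the y axis gives its level in each of the 4 libraries (CPM), 1 point per library. The KO points (red) lie above the fl/fl points (blue) for the 26 called genes shown, in all 4 clusters, and overlap with them for Hoxb13 and Hoxd1. One tested gene is not shown.

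Early mesoderm and vessel genes rose in 13 of 20 members and fell in 2 (median 1.57). Pdgfra, the PDGF receptor of early mesoderm and primitive endoderm, was at 7.83 and 10.04 CPM in fl/fl and 56.9 and 52.3 CPM in KO (2.6 ± 0.12), and Cdh5, the cadherin of endothelium, at 0.54 and 1.27 CPM in fl/fl and 24.8 and 26.03 CPM in KO (4.76 ± 0.23). Runx1, a factor of blood formation, was at 2.56 and 3.35 CPM in fl/fl and 16.8 and 18.3 CPM in KO (2.55 ± 0.16). Etv2, the ETS factor that starts the vessel and blood lineages, went the other way (6.21 and 4.15 CPM in fl/fl and 0.98 and 0.537 CPM in KO, -2.77 ± 0.41).

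Primitive and visceral endoderm genes rose in 24 of 26 members and fell in 1, with a median of 1.76 and summed levels of 3229.6 and 3419 CPM in fl/fl and 7741 and 7549.9 CPM in KO. The lineage regulators were among them. Gata6, which sets primitive endoderm apart from epiblast, stood at 6.61 and 7.62 CPM in fl/fl and 42.1 and 40.1 CPM in KO (2.52 ± 0.10, adjusted p = 3.72e-09), Gata4 at 22.5 and 23.4 CPM in fl/fl and 62.4 and 68.95 CPM in KO (1.51 ± 0.10) and Sox17 at 2.83 and 2.88 CPM in fl/fl and 35.3 and 33.4 CPM in KO (3.58 ± 0.14). Plat, a plasminogen activator of parietal endoderm, was at 3.51 and 4.38 CPM in fl/fl and 32.7 and 33.6 CPM in KO (3.06 ± 0.13), and Ihh, a hedgehog ligand of visceral endoderm, at 1.35 and 2.31 CPM in fl/fl and 11.2 and 10.02 CPM in KO (2.51 ± 0.27).

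Matrix genes rose too. Their list shares Col4a1 and other basement membrane genes with the endoderm list, so the summed levels of these lists overlap. Of 57 tested genes for collagens, laminins and other matrix proteins 44 rose, 37 by at least 2-fold, and 3 fell (median 1.69). Their levels summed to 4269.6 and 4523 CPM in fl/fl and 9073 and 8813 CPM in KO. Col4a1, a chain of basement membrane collagen, stood at 242 and 248 CPM in fl/fl and 1309 and 1279.8 CPM in KO (2.4 ± 0.03, adjusted p = 1.09e-11). Fibrillar and microfibrillar collagens rose from low levels, with Col1a1 at 9.72 and 10.5 CPM in fl/fl and 65.3 and 57.6 CPM in KO (2.6 ± 0.15), Col3a1 at 1.48 and 1.38 CPM in fl/fl and 22.7 and 16.8 CPM in KO (3.77 ± 0.23) and Col6a1 at 3.24 and 3.81 CPM in fl/fl and 45.7 and 39.8 CPM in KO (3.59 ± 0.14).

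Markers of fibroblast feeder cells, on which ES cells are often grown, moved with the matrix genes, and the lists share several collagens. Of 20 tested markers 18 rose and 0 fell (median 2.35), and the whole list summed to 195 and 188 CPM in fl/fl and 661 and 628 CPM in KO. Over the 4 libraries together the members ranged from 3 counts for Lum to 3716 for Fbln1. Vim had 3093, Col1a1 1473, Fbln2 1285, Thy1 900 and Tagln 670, while Dcn had 20, Fap 33, S100a4 33 and Acta2 44. Fap, S100a4 and Acta2 were among those that rose, and Thy1 and Dcn were not called. The part of such cells in the rise of the matrix genes was not tested. Blood and immune markers rose in 5 of 7 members and fell in 1, and summed to 42.9 and 43.3 CPM in fl/fl and 135 and 132 CPM in KO. Laptm5, a lysosomal protein of blood cells, was at 15.9 and 14.1 CPM in fl/fl and 72.2 and 71.5 CPM in KO (2.27 ± 0.07) and the macrophage receptor Csf1r at 1.08 and 1.96 CPM in fl/fl and 14.5 and 12.7 CPM in KO (3.12 ± 0.25), whereas Coro1a fell (11.1 and 12.6 CPM in fl/fl and 1.86 and 1.88 CPM in KO). The macrophage gene Cd68 had 843 counts in the 4 libraries, Cd74 221 and Lyz2 100. The pan-leukocyte gene Ptprc had 6, Cd52 13, the alpha globin genes Hba-a1 and Hba-a2 10 and 11, and 4 beta-like globin genes 0. The part of blood cells in these rises was not tested.

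Epithelial and trophectoderm genes rose as well. Of 18 trophectoderm and placental genes 13 rose and 1 fell (median 1.33), and the list holds Cdx2 and Eomes, which the streak and caudal lists hold too. It also shares keratins, among them Krt7 and Krt8, with the keratin list below. Krt8, a keratin of simple epithelia, was at 71.5 and 73.3 CPM in fl/fl and 350.5 and 344 CPM in KO (2.26 ± 0.04, adjusted p = 2.65e-11), Krt7 at 7.69 and 7.15 CPM in fl/fl and 39.0 and 38.1 CPM in KO (2.38 ± 0.10) and the basic helix-loop-helix gene Hand1 at 2.97 and 4.38 CPM in fl/fl and 15.5 and 16.4 CPM in KO (2.1 ± 0.21). Of 77 keratin and cornified envelope genes 28 passed the filter, and of these 23 rose and 0 fell (median 2.80, or 2.54 with members at 0 counts at their bound). Krt17, a keratin of stratified and injured epithelia, was at 2.7 and 3.23 CPM in fl/fl and 31.5 and 36.8 CPM in KO (3.52 ± 0.15), and Tgm1, the transglutaminase of the cornified envelope, at 1.35 and 2.42 CPM in fl/fl and 20.3 and 20.7 CPM in KO (3.4 ± 0.17). Krtdap, a keratinocyte gene with 0 counts in fl/fl, was at least 29.6-fold higher.

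Neuroectoderm genes were divided and their median had no stable sign. Of 16 tested genes 6 rose and 7 fell, with a median of 0.09 that was negative in 5 alternatives, at -0.53 under the stricter filter, -0.09 without the KO library of lot 2 and -0.225 without the fl/fl library of lot 12. The count of rises fell to 3 without the fl/fl library of lot 12 and to 2 under the stricter filter. Bcl11a, a zinc finger repressor of neural and blood cells, went from 18.6 and 17.9 CPM to 0.98 and 1.07 CPM (-4.14 ± 0.22, adjusted p = 2.43e-08) and Insm1, a factor of neurogenesis, from 16.6 and 17.5 CPM to 0.98 and 1.7 CPM (-3.65 ± 0.23). Pax6 (8.23 and 6.23 CPM in fl/fl and 2.45 and 2.15 CPM in KO) and Sox1 (2.56 and 3.0 CPM in fl/fl and 0.588 and 1.25 CPM in KO), factors of the early neural plate, fell from low levels. Lhx2, a forebrain homeobox gene, rose (0.81 and 0.808 CPM in fl/fl and 8.92 and 8.94 CPM in KO, 3.45 ± 0.24).

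Genes of the 2-cell-like state, a rare state of ES cells that shares transcripts with the early embryo, rose in 24 of 25 tested members and fell in 1, from low levels. Their median was 3.10, or 2.92 with members at 0 counts at their bound. The member that fell, the initiation factor gene Eif1a (205 and 198 CPM in fl/fl and 182 and 183 CPM in KO), was chosen here after its values were seen, and it holds most of the list's summed level (229.8 and 219.7 CPM in fl/fl and 347 and 360.2 CPM in KO). Zscan4d, of the family that marks this state, was at 0.81 and 1.27 CPM in fl/fl and 9.01 and 11.98 CPM in KO (3.31 ± 0.30), and Tmem92 at 0.81 and 0.692 CPM in fl/fl and 6.96 and 5.99 CPM in KO (3.1 ± 0.34). The Zscan4 and Usp17l families have near-identical copies whose reads may have been split or shared, so single members are uncertain. These families make up much of the list, so the 24 rises may not be separate observations. The same limit holds for the median. Germline and meiosis genes rose in 26 of 31 members and fell in 1 (median 1.64). Tex11, an X-linked meiotic gene, was at 3.24 and 3.0 CPM in fl/fl and 43.4 and 45.9 CPM in KO (3.84 ± 0.14, adjusted p = 1.6e-09) and Piwil2, a PIWI protein of the piRNA pathway, at 12.7 and 15.5 CPM in fl/fl and 65.1 and 66.4 CPM in KO (2.21 ± 0.08).

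Cholesterol synthesis showed a fall across the pathway. Its enzymes share control by SREBP2, which binds sterol regulatory elements. Of 26 genes 24 fell, 14 by at least 2-fold (7 under library size alone), with a median of -1.05 and a summed level of 4950.5 and 5075 CPM in fl/fl and 2405 and 2380.0 CPM in KO. Of the early steps, Hmgcs1, HMG-CoA synthase, was at 685 and 706 CPM in fl/fl and 322 and 314 CPM in KO (-1.13 ± 0.04, adjusted p = 6.08e-10). Of the later steps, Fdps, which makes farnesyl diphosphate, stood at 328 and 342 CPM in fl/fl and 93.9 and 93.7 CPM in KO (-1.84 ± 0.04), Sqle, squalene epoxidase, at 268 and 278 CPM in fl/fl and 102 and 99.4 CPM in KO (-1.44 ± 0.04) and Lss, lanosterol synthase, at 210.4 and 222 CPM in fl/fl and 47.5 and 51.6 CPM in KO (-2.12 ± 0.05). The exception was Ebp, the sterol isomerase, at 12.5 and 13.6 CPM in fl/fl and 32.5 and 28.6 CPM in KO (1.22 ± 0.11, adjusted p = 2.19e-06), and Idh1 was not called.

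The Hmgcs1 promoter is shown as the member with a sterol element in its window, at chr13:119690101-119690400 (+ strand, GRCm38.p6, from RefSeq), with the match to TCACNCCAC in capitals.
Hmgcs1: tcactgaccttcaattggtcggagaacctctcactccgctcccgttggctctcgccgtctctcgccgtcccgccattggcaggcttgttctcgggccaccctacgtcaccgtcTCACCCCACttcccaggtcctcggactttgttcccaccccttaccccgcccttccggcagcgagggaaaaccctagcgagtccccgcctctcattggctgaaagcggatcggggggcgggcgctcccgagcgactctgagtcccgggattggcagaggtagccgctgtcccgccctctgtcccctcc
TCACNCCAC, searched on both strands, was found in 1 of 18 cholesterol genes with a promoter in the table (5.56%). It was in 1.44% of tested genes, in 1.44% of all promoters and in 2.52% of those of genes at least 2-fold lower.

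**Figure D4:**
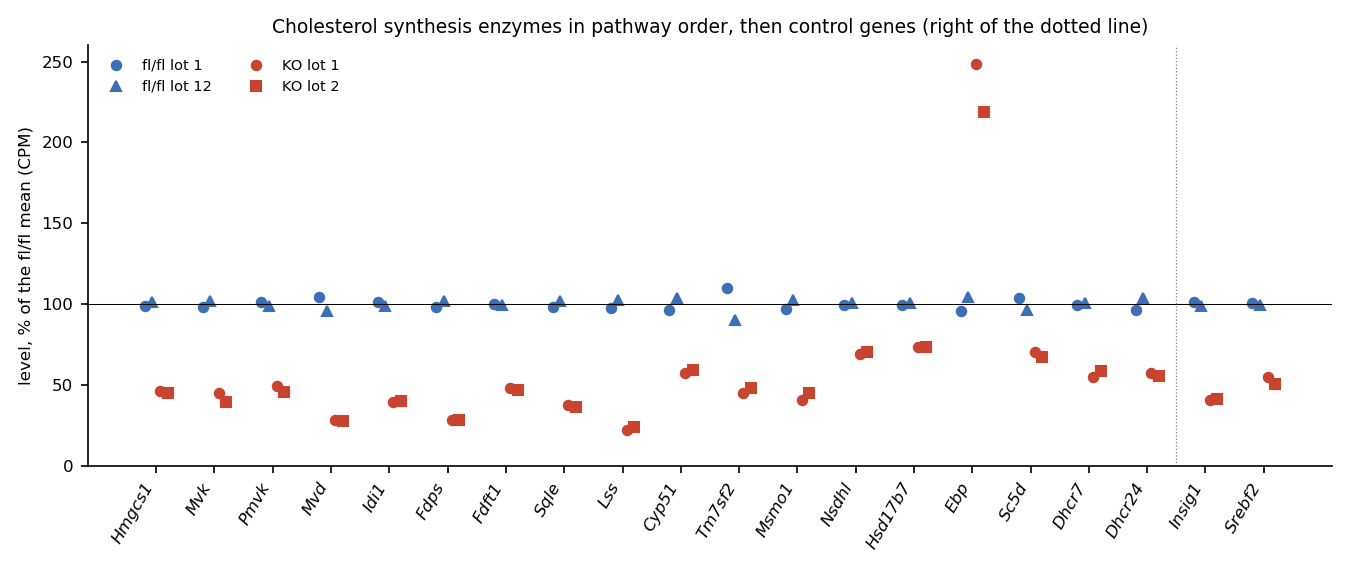
Levels of 20 cholesterol genes in each of the 4 libraries, as a percent of the fl/fl mean on the y axis, with the enzymes in the order of the pathway and 1 point per library. The KO points (red) lie below the fl/fl points (blue) for each gene shown other than Ebp, where they lie above.

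Other metabolic groups fell less evenly. Fatty acid synthesis genes fell in 11 of 17 members and rose in 3 (median -0.56). Library size alone gave 10 lower, 0 of them by 2-fold, and 5 higher (median -0.33). Fasn, fatty acid synthase, stood at 1081 and 1162 CPM in fl/fl and 524 and 505 CPM in KO (-1.12 ± 0.05). Genes of glycolysis and hypoxia fell in 23 of 35 members, 9 by at least 2-fold, and rose in 8 (median -0.48). Library size alone gave 21 lower, 5 by at least 2-fold, and 10 higher (median -0.26). All tested genes over 100 CPM in fl/fl had a median of -0.34 in the main fit. Slc16a3 is also counted in the formative list. The lactate exporter Slc16a3 (144 and 161 CPM in fl/fl and 50.3 and 40.3 CPM in KO) and the hypoxia-induced Bnip3 (124 and 136 CPM in fl/fl and 41.5 and 37.7 CPM in KO) and Egln3 (97.4 and 105 CPM in fl/fl and 33.3 and 30.3 CPM in KO) fell, while P4ha2, a collagen prolyl hydroxylase, rose (17.1 and 13.04 CPM in fl/fl and 57.6 and 51.9 CPM in KO, 1.87 ± 0.11). NRF2 targets, genes of the antioxidant response, had a median of -0.20 that became 0.02 under library size alone, with 4 higher and 13 lower of 22. Library size alone gave 7 higher and 10 lower, and 2 rose without the KO library of lot 2 or without the fl/fl library of lot 1. Ftl1, ferritin light chain (4568 and 4406 CPM in fl/fl and 1665 and 1640.5 CPM in KO, -1.44 ± 0.03), and Gclm, a subunit of the enzyme that starts glutathione synthesis (298 and 302 CPM in fl/fl and 129 and 128 CPM in KO, -1.23 ± 0.04), fell.

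Ribosomal protein genes, among the most abundant messages, fell in 79 of 80 members (median -0.75). They summed to 60615 and 58567 CPM in fl/fl and 35189 and 33549 CPM in KO. Rps26 went from 876 and 831 CPM to 378 and 379 CPM (-1.17 ± 0.04), and Rps27l alone was not called. Ribosomal genes have many processed copies in the genome, whose reads the counting may have split. Of 13 mitochondrially encoded transcripts 8 rose and 0 fell (median 0.23). Without the fl/fl library of lot 12, 5 rose and 3 fell (median 0.11), and library size alone gave 12 higher (median 0.455). The change of mt-Co2, a subunit of cytochrome oxidase, was 0.41 ± 0.06 (adjusted p = 0.0001). That of mt-Nd3, a subunit of complex I, was 0.39 ± 0.12 (adjusted p = 0.0131), a call lost without the KO library of lot 1 (0.0549) and without the fl/fl library of lot 1 (0.144).

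Cell cycle genes moved both ways. Of the 33 genes listed for G1/S, many of them E2F targets, 21 were called higher and 11 lower (median 0.31). Several cyclins rose, with Ccnd2 (cyclin D2) at 12.8 and 13.7 CPM in fl/fl and 128 and 124 CPM in KO (3.24 ± 0.07, adjusted p = 6.1e-11), Ccne2 at 18.9 and 18.9 CPM in fl/fl and 80.3 and 87.3 CPM in KO (2.15 ± 0.07) and Ccne1, whose protein is a substrate of SCF with FBXW7, at 159.9 and 155 CPM in fl/fl and 304 and 301 CPM in KO (0.94 ± 0.04). The replicative helicase subunit Mcm2 fell (561 and 567 CPM in fl/fl and 255 and 236 CPM in KO, -1.2 ± 0.04). Of the transcription factors MYC and MYCN, Myc rose (0.54 ± 0.12) and Mycn stood at 0.11 ± 0.04 (adjusted p = 0.0459), a call lost in 6 of the 11 alternatives, among them those without the KO library of lot 1 (0.345), the fl/fl library of lot 1 (0.204) or that of lot 12 (0.081). CDK inhibitor genes and genes of other SCF substrates rose in 9 and fell in 8 of 20 members, with a median of -0.07 that turned positive in 3 alternatives (0.16 under library size alone and 0.02 without the KO library of lot 2). Cdkn1a (p21) was at 61.7 and 61.04 CPM in fl/fl and 141 and 137 CPM in KO (1.18 ± 0.04), Cdkn2c (p18) at 0.945 and 1.15 CPM in fl/fl and 13.5 and 12.5 CPM in KO (3.61 ± 0.20) and Cdkn2a at 12.95 and 14.4 CPM in fl/fl and 36.3 and 35.1 CPM in KO (1.38 ± 0.10). Cdkn1b (p27), whose protein SCF with SKP2 degrades, went the other way, from 52.6 and 55.5 CPM to 27.3 and 25.4 CPM (-1.04 ± 0.07, adjusted p = 2.4e-07). Genes of G2 and mitosis rose in 20 of 25 members and fell in 1, none by 2-fold (median 0.39). Kif23, a kinesin of cell division, moved most among those named (98.6 and 104 CPM in fl/fl and 187 and 202 CPM in KO, 0.94 ± 0.05).

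Targets of p53 and apoptosis genes rose in 15 of 27 members and fell in 7 (median 0.36), against 20 and 4 under library size alone. Perp, a p53 target and desmosome protein, was at 12.5 and 13.3 CPM in fl/fl and 103 and 100.2 CPM in KO (2.97 ± 0.07, adjusted p = 1.1e-10), and Btg2, an antiproliferative target, at 58.2 and 48.2 CPM in fl/fl and 181 and 170.3 CPM in KO (1.73 ± 0.07).

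**Figure D5:**
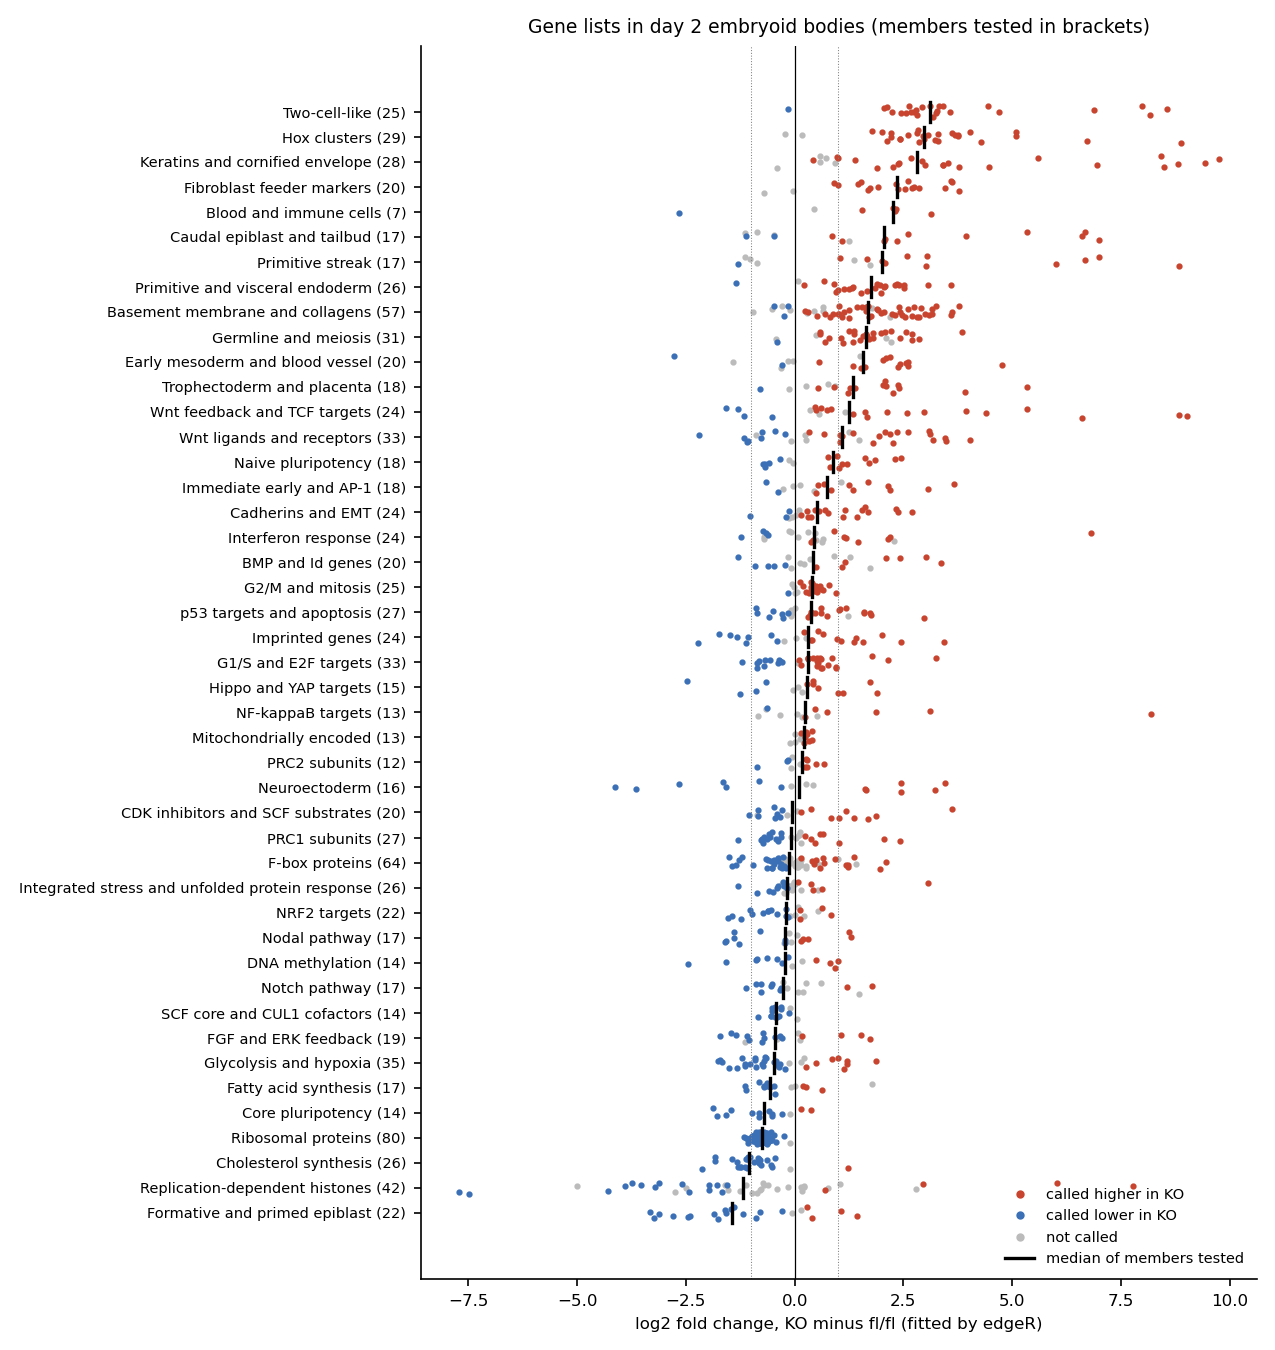
Each row is one gene list, each point a tested member, and the x axis gives its log2 change, KO minus fl/fl, coloured by call, with the median of the list as a black bar. Hox, 2-cell-like and keratin lists lie far to the right with medians of 2.97, 3.10 and 2.80, and the formative, cholesterol and ribosomal protein lists lie to the left with -1.43, -1.05 and -0.75. Folds of members with 0 counts in one group are fitted and uncertain.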

How the data were processed

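Poly(A)-selected RNA was sequenced in 8 libraries, of which 4 are compared. The authors deposited a table of raw read counts, whole numbers without normalization, with 36255 gene symbols. The submitters' processing notes name Trim Galore (version 0.6.7) and, as builds, GRCm38 and mm10. Not given in the sources used here are the aligner, counter, annotation, strand setting and treatment of multiply matching reads.

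The test was edgeR's (version 4.0.16, limma 3.58.1, R 4.3.3). After filterByExpr with the 4 groups of the series 16542 genes remained, and TMM factors scaled the libraries. The quasi-likelihood fit took all 8 libraries with a mean for each group, which lets the groups share their spread, with a common biological coefficient of variation of 3.4% and 4 residual degrees of freedom. The contrast KO minus fl/fl in day 2 embryoid bodies was tested by glmQLFTest (two-sided), with Benjamini-Hochberg adjustment over all 16542 genes and a threshold of 0.05. The standard error is the absolute log2 change divided by the square root of F. Genes with 0 counts in one group are given as bounds against 3 counts over that group, and those with 1 to 3 counts as ratios with exact 95% counting intervals, which cover counting error only. The procedure was run on simulated data in which few genes changed. This differs from these data, so the run does not bear on the choice of scaling. Of the symbols 34715 matched GENCODE vM21 once. Promoters come from the RefSeq table for GRCm38.p6, which held 11878 of the tested genes.

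The comparison and the 45 gene lists were chosen with earlier results of these data known. Named were Skp1a, the 10 largest rises and falls among called genes with at least 10 CPM in the higher group and groups that did not overlap, up to 5 called members of each list with at least 5 CPM, and a fixed set of stage, pathway and SCF genes. Members named outside that rule (Ebp, Idh1, Hoxb13, Hoxd1, Rps27l and cell markers by their counts) were chosen after their values were seen. The histone list was widened to the current symbols after its values were seen. Alternatives were DESeq2 1.42.0, RLE scaling, library size alone, no filter, at least 1 CPM in 4 libraries, a fit of the 4 day 2 libraries, lots as blocks, and leaving out each library. Some members of the lists enter the counts and are not reported here by name.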

Additional observations from a re-analysis of the deposited data

How the results depend on the processing

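Over 11 alternatives the total called stayed between 8911 (DESeq2) and 10681 genes and those at least 2-fold between 2664 and 3781, against 10289 and 3484. Library size alone lowered the count of falls to 3345, and of at least 2-fold falls to 621, since it moves the median of all genes to 0.23. It also reversed 3 small changes, giving Zfp42 0.18, Suz12 0.15 and Jarid2 0.077. Without the fl/fl library of lot 1, Zfp42 stood at 0.0068, and leaving out single libraries gave -0.097 to 0.0068. For Rnf2 the replicate block gave -0.025 and omission of the fl/fl library of lot 12 gave -0.048, in a range of -0.048 to 0.099 over single omissions. When 1 library is left out of a group, the other is assumed to vary like the other groups. Of 246 named genes 12 lost their call or changed sign in at least 1 alternative. Medians of 8 lists changed sign in at least 1 alternative, as given with each in the text or, for stress genes, among the further observations. The filter of at least 1 CPM in 4 libraries left 8 Hox genes, of which 8 rose, and 15 keratin genes (13 rose). It also left 11 genes of the 2-cell-like state (10 rose) and 11 caudal genes (7 rose). A gene under 1 CPM in both fl/fl day 2 libraries passed this filter only through the KO day 2 and ES cell libraries. These shares were therefore partly set by selection. Of the 29 Hox genes of the main fit, 27 rose there, 20 under DESeq2 and 22 with lots as blocks, and 0 fell in each. The fit of the 4 day 2 libraries left 17 Hox genes, of which 17 rose. Hox genes low in fl/fl could pass the filter of that fit only through the KO libraries, so this count was largely set by selection. Under library size alone falls dropped to 0 for matrix and 1 for cadherin genes, and rises of fatty acid genes went to 5. The replicate block by lot number called 8955 genes, 4276 higher and 4679 lower, and 5 mitochondrial transcripts higher and 1 lower. Lots do not pair the compared groups, which share lot 1 alone, and over all groups libraries of the same lot number had deviations correlated at -0.126 to 0.183. With 2 libraries a group and 7858452 to 10055667 counts each, folds of genes under about 1 CPM rest on few counts.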

Other observations

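Several further groups showed mixed changes. Of 24 imprinted genes, which are expressed from one parental allele, 13 rose and 8 fell, 7 and 6 of them by at least 2-fold. Igf2, the fetal growth factor gene, stood at 73.8 and 74.3 CPM in fl/fl and 414 and 392 CPM in KO (2.44 ± 0.05) and Peg10, a retrotransposon-derived placental gene, at 291 and 307 CPM in fl/fl and 1213 and 1195 CPM in KO (2.01 ± 0.04), while Plagl1, a zinc finger gene, rose by 3.44 ± 0.11. Nnat, a neuronal membrane protein gene, fell from 19.7 and 17.8 CPM to 4.02 and 3.94 CPM (-2.23 ± 0.16).

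Immediate early and AP-1 genes rose in 11 of 18 members and fell in 2 (median 0.75), among them Atf3 (3.24 and 3.46 CPM in fl/fl and 28.6 and 27.8 CPM in KO, 3.07 ± 0.16) and Jun (20.8 and 20.5 CPM in fl/fl and 66.4 and 66.9 CPM in KO, 1.69 ± 0.08). Genes of the integrated stress and unfolded protein response had no stable direction, with 5 higher and 10 lower of 26, and a median of -0.18 that became 0.05 under library size alone, with 12 higher and 4 lower. Rises fell to 3 without the KO library of lot 1, the fl/fl library of lot 1 or that of lot 12. The transcription factor gene Atf4 fell from 225 and 213 CPM to 92.1 and 84.96 CPM (-1.31 ± 0.05). NF-kappaB targets rose in 6 of 13 members and fell in 1. The call of its subunit gene Nfkb2 (0.24 ± 0.09, adjusted p = 0.0341 by edgeR) was lost in 4 of 11 alternatives, among them those without the KO library of lot 1 (0.25), the fl/fl library of lot 1 (0.0757) or that of lot 12 (0.167). Interferon response genes rose in 9 of 24 members and fell in 4, with the peptide transporter gene Tap1 higher (1.46 ± 0.10) and the class I gene H2-K1 lower (-1.24 ± 0.10). The share of rises was near that of all tested genes, of which 30.7% rose and 31.5% fell. Library size alone gave 12 interferon genes higher and 4 lower, and DESeq2 gave 7 and 4.

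Notch pathway genes fell in 8 of 17 members and rose in 2 (median -0.26), against 5 and 4 with a median of -0.0335 under library size alone, with the ligand genes Dll1 lower (-1.12 ± 0.15) and Jag1 higher (1.21 ± 0.11). Hippo and YAP genes rose in 8 of 15 members and fell in 4, with the targets Ccn1 (1.9 ± 0.08) and Ccn2 (1.0 ± 0.09) higher and the kinase gene Lats1 lower (-1.25 ± 0.07). Cadherin and EMT genes rose in 17 of 24 members and fell in 3, with the intermediate filament gene Vim at 36.6 and 36.3 CPM in fl/fl and 119 and 116 CPM in KO (1.69 ± 0.06) and the repressor gene Snai1 at 2.02 and 2.19 CPM in fl/fl and 11.4 and 10.6 CPM in KO (2.37 ± 0.20). Replication-dependent histone messages have no poly(A) tail, and of 42 tested, nearly all at a few CPM or less, 15 fell and 4 rose. Without the fl/fl library of lot 1, 9 fell and 3 rose, without that of lot 12, 14 fell and 1 rose, and without the KO library of lot 1, 13 fell and 2 rose. Hist1h2ap, which has near-identical copies, went from 257 and 441 CPM to 60.6 and 69.7 CPM, and the linker histone gene H1f2 stood at 3.24 and 4.62 CPM in fl/fl and 7.15 and 5.9 CPM in KO (0.71 ± 0.19), a call by edgeR that was lost without the KO library of lot 1 (adjusted p = 0.0507) and without the fl/fl library of lot 1 (0.0892).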
